A study of Mus musculus with 16 samples.

Results

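Conventional CD4 T cells of the mouse uterus (CD4conv) were compared with regulatory T cells (Treg) of the para-aortic lymph nodes, the nodes draining the uterus. The comparison used 8 of the 16 libraries of the series, 4 of CD4conv and 4 of lymph node Treg, numbered 1, 2, 3 and 5 in each group and chosen by their labelled tissue and cell type alone. All mice carried Foxp3 IRES-GFP, a reporter in which green fluorescent protein marks cells that transcribe Foxp3, on a BALB/c background. CD4conv were labelled CD4+Foxp3- and lymph node Treg CD4+Foxp3+CD25+, and the donors of both were not pregnant. Each of these libraries was made from a pool of 20 mice, so its value is an average over animals. The other 8 libraries were uterine Treg labelled CD4+Foxp3+CD25-, 4 from non-pregnant mice in pools of 20 and 4 from pregnant mice (gestation days 6 to 8) in pools of 3 to 8. They were used to place each difference. A gene was placed with the tissue where all 12 uterine libraries lay on one side of the 4 lymph node libraries. It was placed with the lineage where the 4 CD4conv libraries lay on one side of all 12 Treg libraries. Lymph node Treg were the only group labelled CD25+. Placement with the tissue therefore also runs with that label, and these cannot be told apart. CD4conv and pregnant uterine Treg were sequenced in batch 1, and both Treg groups without pregnancy in batch 2. Tissue, lineage and batch therefore cannot be told apart within the comparison itself, and each batch held only 1 of its groups, so no within-batch value exists for it.

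Regulatory T cells are CD4 T cells held in a suppressive state by the transcription factor Foxp3. They carry a high level of the interleukin 2 receptor and depend on interleukin 2 made by conventional CD4 T cells, which lack Foxp3 and supply help through cytokines and CD40 ligand. T cells that enter tissues lose lymph node homing receptors such as Ccr7 and gain inflammatory chemokine receptors, S100 proteins, annexins and galectins. A gene that differs between a uterine CD4conv and a lymph node Treg can thus belong to the Treg program, to the tissue, or to other cells in the sort.

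Library totals were 7674391 to 12302043 counts in CD4conv and 1718558 to 6298500 in lymph node Treg, so low levels were measured less precisely in the lymph node. Some counts fell in genes silent in T cells: from the olfactory and vomeronasal receptor genes, background was estimated at 9.40% to 21.7% of counts in CD4conv and 9.20% to 38.6% in lymph node Treg, the highest in lymph node Treg 3. A second fit was therefore made on the 4723 protein-coding genes whose mean share over all 16 libraries exceeded 5 times this background, and both fits are given. A gene high in a single group could enter this set through that group. Each level is a CPM value, a gene's counts for every 1000000 in its library, given for libraries 1, 2, 3 and 5 in that order. Differences are log2 fold changes of CD4conv over lymph node Treg with their standard error (SE) from edgeR's quasi-likelihood test, whose p-values were adjusted over all genes of the fit. Of the T cell identity genes, Cd4 measured 569, 186, 429 and 625 CPM in CD4conv and 279, 354, 248 and 445 in lymph node Treg. Those groups overlapped, and neither Cd4 (log2 0.49 ± 0.39, adjusted p = 0.676 above background) nor Cd3e (−0.79 ± 0.33, adjusted p = 0.202) passed the threshold of 0.05.

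Over all 30096 genes tested, 178 were higher in CD4conv (0.591%) and 22 were lower (0.0731%). Above background, 225 of 4723 genes were higher (4.76%) and 136 were lower (2.88%), together 7.64%, against 0.665% in either direction over all genes. The 4 libraries of one group lay wholly above the other without regard to the test for 3.64% (CD4conv higher) and 2.8% (lower) of all genes, and for 7.18% and 8.15% above background. Other contrasts used below share libraries with this one: above background 1.29% of genes passed between uterine and lymph node Treg, 2.35% between pregnant uterine and lymph node Treg, 6.1% between CD4conv and uterine Treg and 8.38% between CD4conv and pregnant uterine Treg. Over all genes 0 genes passed in the first pair of these contrasts, and 0.518% and 0.432% in the last pair. The median log2 difference was −0.02 over all genes and 0.01 above background, near 0 as the scaling sets it. Of the 225 higher genes, 111 were placed with the lineage, 17 with the tissue and 2 with the batch. Placement with the lineage means only that CD4conv lay apart from all Treg. Among the higher genes it also took in genes known from other cell types, such as H2-Aa, H2-Eb1 and Cd74, described below. Of the 136 lower genes, 32 were placed with the lineage, 33 with the tissue and 0 with the batch, and a gene can hold more than 1 place. Among all genes above background, called or not, the 12 uterine libraries lay above the lymph node for 0.402% and below it for 1.31%, and CD4conv lay above all Treg for 3.01% and below them for 0.868%. Over all genes these shares were 0.093%, 0.329%, 0.904% and 0.186%. Called genes already differ between CD4conv and lymph node Treg, so their larger shares follow in part from the call. Over all genes, 119 of the 178 higher genes were placed with the lineage and 8 with the tissue, and of the 22 lower genes 10 and 15. Without lymph node Treg 1 and 3 the counts above background fell to 74 higher and 64 lower, and without CD4conv 2 and 3 to 87 and 50.

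**Figure D1:**
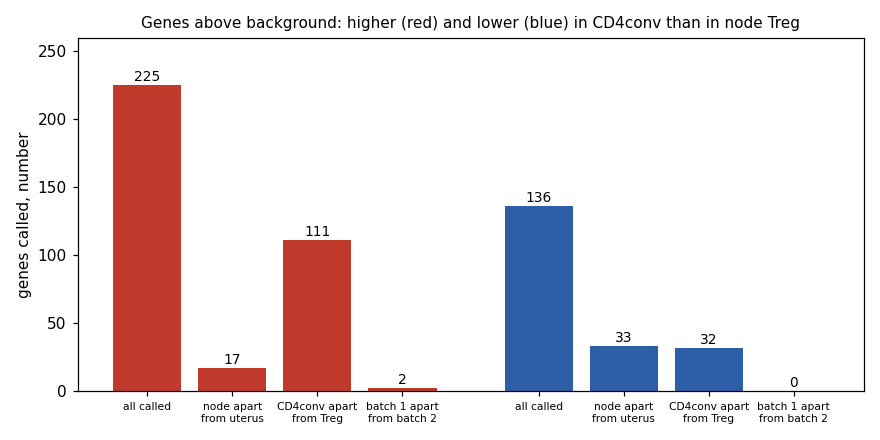
Number of genes above background called between uterine CD4conv and lymph node Treg (vertical axis, genes), in all and by placement: lymph node libraries apart from all uterine ones, CD4conv apart from all Treg, batch 1 apart from batch 2. Of 225 higher genes (red) 111 set CD4conv apart from all Treg, and of 136 lower genes (blue) 33 set the lymph node apart from the uterus.

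The genes that separated CD4conv from every Treg group began with the gene of the sort. Foxp3 (GRCm38 chromosome X, 7573644 to 7595245, plus strand) measured 3.06, 0.569, 0.503 and 3.26 CPM in CD4conv and 414, 629, 407 and 784 CPM in lymph node Treg. All 4 CD4conv libraries were near the floor and no library of the other group came close, as the labels state. The log2 difference was −8.25 ± 0.99 (SE; adjusted p = 5.06e-05 over all genes). Il2ra, which encodes the CD25 chain of the interleukin 2 receptor, measured 22.3, 17.4, 27.2 and 25.9 CPM in CD4conv against 367, 318, 221 and 276 CPM in lymph node Treg. It was 54.4 to 125 CPM in non-pregnant and 76.7 to 190 CPM in pregnant uterine Treg, between both groups without overlap. CD25 was part of the Treg labels, so the Il2ra order (log2 −3.64 ± 0.62, adjusted p = 0.00219) also carries the sort.

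Of the core Treg list, which includes both sort genes, 14 of 15 genes were lower in CD4conv above background and 8 of 17 over all genes, with a median log2 difference of −2.86 against −0.02 for all genes tested. Lrrc32, which encodes the GARP protein that presents latent TGF-beta on the Treg surface, measured 3.61, 0.0813, 5.43 and 22.5 CPM in CD4conv and 201, 271, 202 and 534 CPM in lymph node Treg. Itgae, the integrin chain CD103 that binds E-cadherin, measured 24.3, 2.03, 16.1 and 20.8 CPM against 187, 233, 170 and 247 CPM. The groups did not overlap for either gene, with log2 differences of −5.41 ± 1.00 (adjusted p = 0.00482) and −3.77 ± 0.70 (adjusted p = 0.0047) over all genes. CD103 is also known as a residency marker of tissue T cells, but here its transcript was low in uterine CD4conv and measured 120 to 191 CPM in uterine Treg. Above background it did not pass the threshold between uterine and lymph node Treg (log2 −0.27 ± 0.40, adjusted p = 0.888).

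Further receptors and regulators of Treg gave the same separation. Ctla4, the inhibitory receptor for CD80 and CD86, measured 206, 93.2, 73.0 and 237 CPM in CD4conv and 1037, 1245, 1170 and 1647 CPM in lymph node Treg. Its level in CD4conv was well above the background level of silent genes, yet below all 12 Treg libraries. The difference passed above background (log2 −3.04 ± 0.37, adjusted p = 4.92e-05) and missed the threshold over all genes (adjusted p = 0.0533). Ikzf2, which encodes the Treg transcription factor Helios, measured 60.7, 38.9, 50.2 and 74.1 CPM against 576, 307, 336 and 417 CPM. Its log2 difference was −2.91 ± 0.62 (adjusted p = 0.0148 over all genes), a call that was lost without CD4conv 1, 2, 3 or 5 or lymph node Treg 1 or 5, while that above background (adjusted p = 1.49e-06) stood in all 8 fits that left out 1 library. Tnfrsf9, the costimulatory receptor 4-1BB, measured 17.4, 12.4, 12.97 and 17.1 CPM against 284, 337, 248 and 367 CPM (log2 −4.27 ± 0.62, adjusted p = 0.000445). Rln3, a relaxin family hormone, measured 1.64, 0, 0.302 and 0.521 CPM against 65.9, 27.2, 23.3 and 37.7 CPM (log2 −6.15 ± 0.97, adjusted p = 0.000994) and was 7.92 to 54.9 CPM across the 8 uterine Treg libraries. The phosphatase gene Dusp4 (log2 −3.08 ± 0.68) and the Ikaros family gene Ikzf4 (−2.86 ± 0.64) were placed with the lineage as well, with adjusted p-values of 0.0238 and 0.0255 over all genes that were lost without CD4conv 1, 2 or 3 or lymph node Treg 1 or 5.

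**Figure D2:**
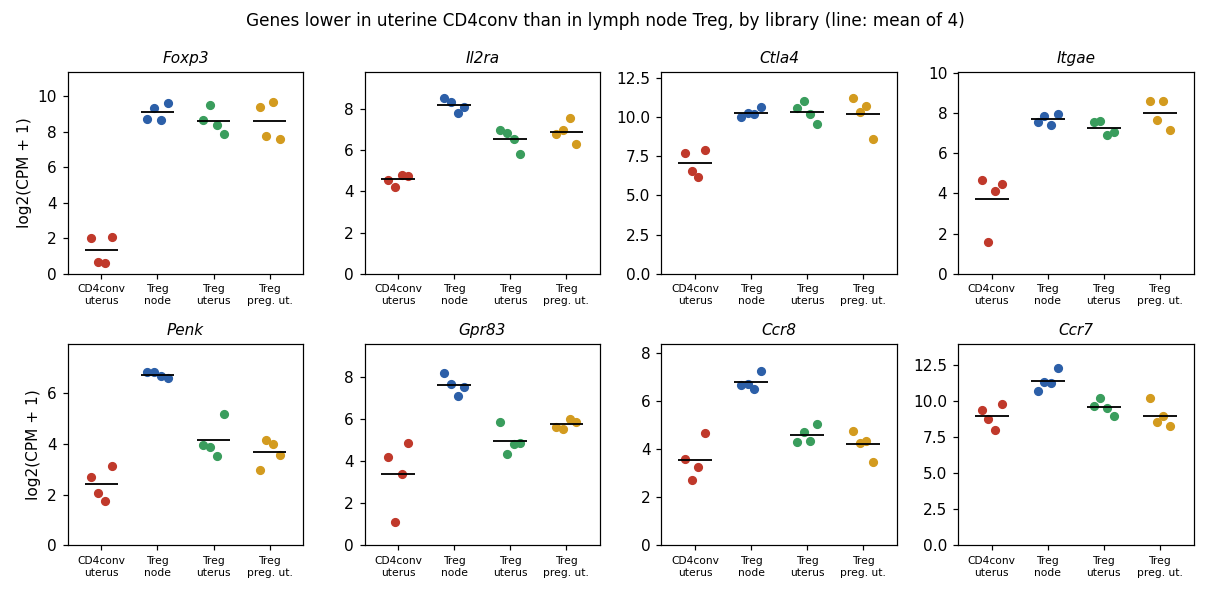
Level of 8 genes in each of 16 libraries, as log2(CPM + 1), by group (CD4conv and Treg of the uterus, Treg of the lymph node, Treg of the pregnant uterus), with a line at the mean of 4. In the upper row CD4conv lie below all Treg groups, and in the lower row the 4 lymph node libraries lie above all 12 uterine ones.

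A second set of genes that were lower in CD4conv was low in uterine Treg as well. Penk (chromosome 4, 4133531 to 4138819, minus strand), which encodes proenkephalin, the precursor of opioid peptides, measured 5.47, 3.17, 2.31 and 7.69 CPM in CD4conv and 113, 115, 102 and 95.6 CPM in lymph node Treg. The 4 lymph node values were close to each other, and all 8 uterine Treg values were below them, at 6.94 to 35.6 CPM. The log2 difference was −4.48 ± 0.59 (adjusted p = 0.000144 over all genes). Above background, uterine Treg differed from lymph node Treg by −2.29 ± 0.51 (adjusted p = 0.032) and pregnant uterine Treg by −2.76 ± 0.52 (adjusted p = 0.00668), contrasts that share the lymph node libraries with the main one. CD4conv were lower than uterine Treg too, by −2.20 ± 0.52 (adjusted p = 0.0134), so that Penk ran from lymph node Treg through uterine Treg to CD4conv.

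The chemokine receptor Ccr8, known from effector Treg and T helper 2 cells, measured 11.3, 5.61, 8.65 and 24.4 CPM in CD4conv and 102, 106, 90.8 and 154 CPM in lymph node Treg. Uterine Treg were at 18.8 to 32.2 CPM and pregnant uterine Treg at 10.1 to 26.1 CPM, levels that overlapped those of CD4conv. Its log2 difference was −3.22 ± 0.58 (adjusted p = 0.00347), and between CD4conv and uterine Treg it was −1.11 ± 0.40 (adjusted p = 0.121 above background). Gpr83, an orphan receptor of Treg, measured 17.4, 1.14, 9.45 and 28.0 CPM against 295, 204, 136 and 183 CPM, with 19.6 to 63.3 CPM in uterine Treg of both kinds (log2 −4.09 ± 0.71, adjusted p = 0.00237). Izumo1r, the Treg-associated folate receptor 4, measured 54.3, 37.3, 14.1 and 36.5 CPM against 842, 474, 424 and 433 CPM (log2 −3.92 ± 0.75, adjusted p = 0.00664). These genes belong to lists of Treg genes, yet in these libraries the lymph node Treg, the only group labelled CD25+, stood above uterine Treg for each of them.

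Ccr7, the receptor that guides T cells into lymph nodes, was more abundant. It measured 667, 416, 248 and 886 CPM in CD4conv, 1662, 2498, 2340 and 4840 CPM in lymph node Treg, and 300 to 1170 CPM in the 8 uterine Treg libraries. The difference passed above background (log2 −2.31 ± 0.38, adjusted p = 0.000693) but not over all genes (adjusted p = 0.274). CD4conv did not pass against uterine Treg (log2 −0.62 ± 0.37, adjusted p = 0.38), while uterine Treg (−1.69 ± 0.37, adjusted p = 0.0316) and pregnant uterine Treg (−2.11 ± 0.38, adjusted p = 0.00538) passed against the lymph node. Of the naive, homing and egress list, 3 of 15 genes were lower above background (Ccr7, Foxo1 and Cd27) and 2 were higher (Il7r and Ly6c1), while over all genes 1 of 18 was higher and 0 were lower. Foxo1, a transcription factor of naive and resting T cells, differed by −1.30 ± 0.28 (adjusted p = 0.00555 above background) and Cd27, a costimulatory TNF receptor family member, by −1.76 ± 0.28 (adjusted p = 0.000515 above background). Klf2 (−0.16 ± 0.25) and S1pr1 (0.31 ± 0.35) had adjusted p-values of 0.89 and 0.82 above background.

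Of the tissue residency list, 3 of 14 genes were higher above background (Cxcr6, Runx3 and Litaf) and 1 was lower (Itgae), and over all genes 2 of 18 were higher and 1 was lower. Litaf, a regulator of endosomal sorting, measured 127, 242, 349 and 85.2 CPM in CD4conv and 15.7, 25.7, 18.6 and 23.5 CPM in lymph node Treg (log2 3.54 ± 0.64, adjusted p = 0.00361), highest in CD4conv 2 and 3. Uterine Treg 5 held 91.1 CPM of it, within the CD4conv range. Runx3, a transcription factor of CD8 and resident T cells, differed by 1.41 ± 0.30 (adjusted p = 0.00527 above background). The residency marker Cd69 (−0.59 ± 0.30, adjusted p = 0.361) and Rgs1 (0.11 ± 0.27, adjusted p = 0.934) did not pass.

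Il10, the suppressive cytokine, measured 7.98, 2.28, 9.96 and 8.08 CPM in CD4conv and 43.0, 57.2, 59.4 and 43.5 CPM in lymph node Treg, with 5.44 to 32.4 CPM in uterine Treg of both kinds. All 12 uterine libraries were below the lymph node. The call over all genes (log2 −2.78 ± 0.63, adjusted p = 0.0274) was lost without any 1 of the 8 libraries, whereas that above background (adjusted p = 0.00311) stood in all 8 such fits. H2-Ob, a subunit of the class II regulator DO, measured 10.8, 3.25, 15.6 and 11.99 CPM against 113, 123, 94.3 and 121 CPM (log2 −3.44 ± 0.74, adjusted p = 0.0167; lost without CD4conv 1, 2 or 5 or lymph node Treg 1 or 5, and kept in all 8 fits above background). Ecm1, a secreted matrix protein, measured 42.6, 5.61, 63.8 and 35.2 CPM against 342, 292, 218 and 427 CPM (log2 −3.06 ± 0.51, adjusted p = 0.000693 above background). Its call over all genes (adjusted p = 0.0402) stood only without lymph node Treg 3.

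The genes that uterine CD4conv carried together with uterine Treg included chemokine receptors of inflamed tissue. Cxcr3 (chromosome X, 101731535 to 101734269, minus strand), the receptor for interferon-induced chemokines, measured 174, 160, 122 and 181 CPM in CD4conv and 24.0, 33.4, 28.5 and 21.5 CPM in lymph node Treg. Uterine Treg were at 55.2 to 312 CPM and pregnant uterine Treg at 58.5 to 188 CPM, so each of the 12 uterine libraries exceeded each lymph node library. The log2 difference was 2.62 ± 0.39 (adjusted p = 0.000268 above background) and missed the threshold over all genes (2.74 ± 0.70, adjusted p = 0.0758). Side by side, uterine Treg and pregnant uterine Treg each exceeded the shared lymph node libraries by 2.46 ± 0.39 (adjusted p = 0.00336 and 0.00164). CD4conv and uterine Treg differed by 0.16 ± 0.36 (adjusted p = 0.852), a gap smaller than its error.

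Ccr2, the receptor for monocyte chemokines that effector T cells also carry, measured 300, 282, 772 and 259 CPM in CD4conv and 74.3, 61.9, 75.6 and 77.1 CPM in lymph node Treg. CD4conv 3 stood far above the other CD4conv libraries, and it also held the highest summed level of macrophage and dendritic cell markers, whose part in the Ccr2 result was not tested. The log2 difference was 2.55 ± 0.36 (adjusted p = 0.000159 above background; 0.1 over all genes). Uterine Treg exceeded the lymph node by 1.501 ± 0.34 (adjusted p = 0.036) and pregnant uterine Treg by 2.57 ± 0.36 (adjusted p = 0.000515). Of the 11 chemokine receptors above background, 5 were higher in CD4conv (Ccr2, Ccr9, Cxcr3, Cxcr6 and Gpr183) and 3 were lower (Ccr6, Ccr7 and Ccr8). Over all genes, 3 of 18 were higher (Ccr9, Cxcr6 and Cx3cr1) and 1 was lower (Ccr8). Ccr9 is also a member of the plasmacytoid dendritic cell list described below.

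The S100, galectin and annexin list gave 7 of 13 genes higher above background and 1 of 14 over all genes, with a median log2 difference of 1.34 against −0.02 for all genes tested. S100a6, a calcium-binding protein of activated and memory T cells, measured 173, 315, 203 and 125 CPM in CD4conv and 76.8, 36.2, 49.5 and 33.4 CPM in lymph node Treg. Uterine Treg, at 140 to 378 CPM, and pregnant uterine Treg, at 116 to 342 CPM, covered the CD4conv range. The log2 difference was 2.14 ± 0.36 (adjusted p = 0.000832 above background), beside 2.44 ± 0.37 for uterine Treg and 2.63 ± 0.37 for pregnant uterine Treg against the same lymph node libraries. Anxa2, a membrane-binding annexin, measured 127, 87.5, 179 and 126 CPM against 73.8, 43.8, 36.7 and 50.6 CPM (log2 1.41 ± 0.26, adjusted p = 0.00157 above background), and CD4conv and uterine Treg differed by −0.37 ± 0.25 (adjusted p = 0.447). For S100a11 the uterine Treg rose further than CD4conv. CD4conv were at 155, 119, 119 and 113 CPM and lymph node Treg at 86.7, 47.6, 47.7 and 49.0 CPM (log2 1.19 ± 0.22, adjusted p = 0.00147 above background), but CD4conv were below uterine Treg by −0.77 ± 0.21 (adjusted p = 0.0346).

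Fosl2, an AP-1 transcription factor, measured 138, 220, 119 and 120 CPM in CD4conv and 45.9, 41.0, 38.4 and 72.6 CPM in lymph node Treg, against 73.3 to 132 CPM over both kinds of uterine Treg. The log2 differences from the lymph node were 1.68 ± 0.31 for CD4conv (adjusted p = 0.00182 above background), 1.33 ± 0.31 for uterine Treg (adjusted p = 0.0396) and 1.35 ± 0.31 for pregnant uterine Treg (adjusted p = 0.0273). Emp1, a membrane protein of the PMP22 family, measured 133, 153, 224 and 150 CPM against 19.7, 40.5, 38.99 and 40.2 CPM and was placed with both tissue and lineage (log2 2.31 ± 0.36, adjusted p = 0.000418 above background). Over all genes its call (adjusted p = 0.012) was lost without CD4conv 3 or any 1 lymph node library. The large scaffold protein gene Ahnak (log2 1.25 ± 0.25), the myosin gene Myo1f (1.45 ± 0.31) and S100a4 (2.19 ± 0.54) were also higher in all 12 uterine libraries than in the lymph node, with adjusted p-values of 0.00332, 0.00555 and 0.0156 above background; that of S100a4 was lost without CD4conv 2 or lymph node Treg 2, 3 or 5.

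**Figure D3:**
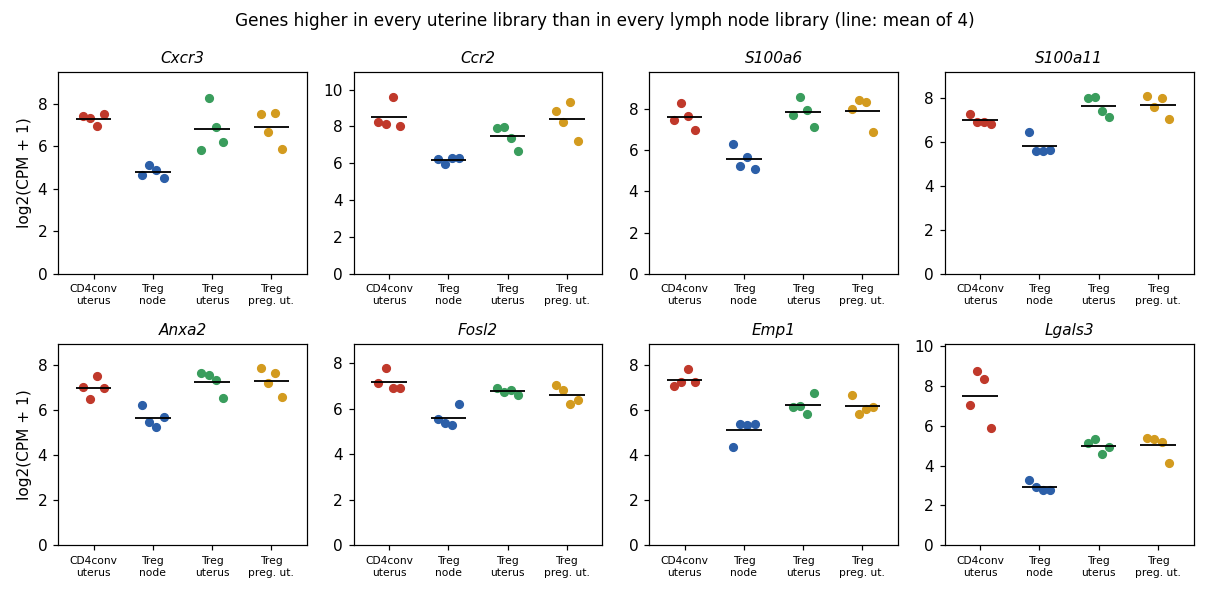
Level of 8 genes in each of 16 libraries, as log2(CPM + 1), by group, with a line at the mean of 4. Every uterine library, CD4conv or Treg, lies above every lymph node library, and CD4conv exceed uterine Treg most for Lgals3.

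Another part of the tissue-placed genes was uneven within CD4conv. Atf3, a stress-induced transcription factor, measured 154, 501, 1074 and 91.1 CPM in CD4conv and 20.3, 51.9, 51.8 and 46.8 CPM in lymph node Treg (log2 3.51 ± 0.70, adjusted p = 0.00463 above background). Lgmn, a lysosomal protease, measured 47.7, 214, 424 and 33.1 CPM against 17.1, 22.4, 17.5 and 14.7 CPM (log2 3.44 ± 0.65, adjusted p = 0.0024 above background). CD4conv 2 and 3 were the high libraries in both. Lgals3, which encodes galectin-3, measured 134, 429, 323 and 59.4 CPM against 8.57, 6.67, 5.82 and 5.81 CPM (log2 5.38 ± 0.79, adjusted p = 0.000458), and 16.5 to 40.9 CPM in uterine Treg of both kinds. It was higher in uterine Treg than in the lymph node (log2 2.37 ± 0.49, adjusted p = 0.02 above background) and higher again in CD4conv than in uterine Treg (2.86 ± 0.47, adjusted p = 0.000759). Over all genes the calls of Atf3 (adjusted p = 0.00938) and Lgmn (adjusted p = 0.0287) were lost without CD4conv 3 or any 1 lymph node library, and that of Lgmn also without CD4conv 2. Lgals3 stood in all 8 such fits.

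The highest fold changes of the comparison came from genes that other cell types are known for. The macrophage and dendritic cell list was higher for 13 of 18 genes over all genes and for 11 of 12 above background, and its summed level was 5808, 19604, 25321 and 1973 CPM in CD4conv against 163 to 245 CPM in lymph node Treg. CD4conv 2 and 3 held the most and CD4conv 5 the least, and all 4 lay above the 12 Treg libraries, whose highest was 1387 CPM. The plasmacytoid dendritic cell list was higher for 14 of 17 genes over all genes and for 9 of 9 above background, with 6177, 7054, 7781 and 3222 CPM in CD4conv against 281 to 406 CPM in lymph node Treg. Of the cytotoxic and NK cell list, 3 of 13 genes were higher over all genes and 7 of 8 above background (4 of 8 without lymph node Treg 5), with 897 to 2757 CPM against 136 to 177 CPM. Genes near 0 in Treg, such as Cox6a2, could enter the set above background only through CD4conv. The shares of these lists above background therefore follow in part from that filter. Over the same libraries the pan T cell list summed to 6365, 4022, 2643 and 6587 CPM in CD4conv and 6231 to 8522 CPM in lymph node Treg, so its lowest values fell in CD4conv 2 and 3. In RNA pooled from many cells, more cells of another type and more of its RNA per cell cannot be told apart, and the part of these cells in the other differences was not tested. Without CD4conv 2 and 3 the macrophage and dendritic cell list had 4 of 18 higher genes over all genes and 6 above background, and the plasmacytoid list 7 of 17 and 7. Without lymph node Treg 1 and 3 these counts were 2 and 5, and 3 and 6.

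**Figure D4:**
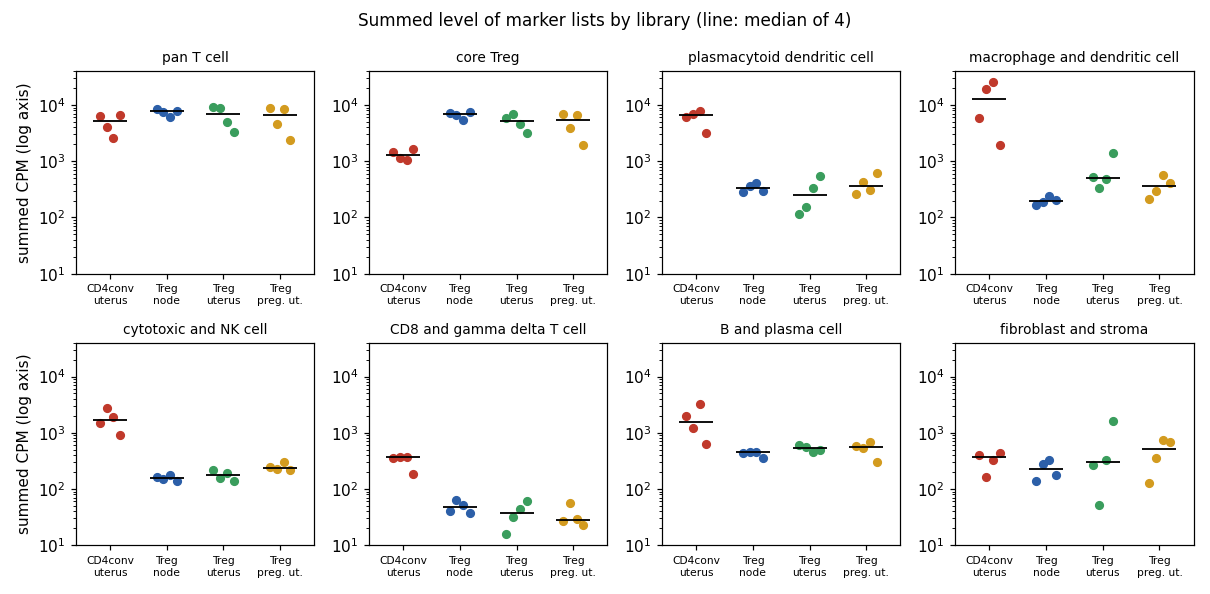
Summed level of 8 marker lists in each of 16 libraries (CPM, log axis), by group, with a line at the median of 4. The CD4conv libraries lie above all Treg libraries for plasmacytoid dendritic cell, macrophage and dendritic cell, cytotoxic and CD8 markers, and below all Treg libraries for core Treg genes.

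Genes of plasmacytoid dendritic cells, the interferon-producing dendritic cells of blood and lymphoid tissue, were high in all 4 CD4conv libraries. Siglech, a surface lectin that marks these cells in mice, measured 1256, 1257, 1622 and 764 CPM in CD4conv and 1.91, 22.4, 29.1 and 10.9 CPM in lymph node Treg (log2 6.74 ± 1.01, adjusted p = 0.000544). Cox6a2, a cytochrome oxidase subunit that plasmacytoid dendritic cells also express, measured 138, 225, 149 and 57.9 CPM against 2 counts in all lymph node libraries together, both in lymph node Treg 1. The ratio of pooled shares was 1074 (95% counting interval 297 to 8868), and the fitted difference passed (adjusted p = 4.9e-05). Irf8, a transcription factor of dendritic cells, measured 1181, 1123, 1311 and 543 CPM against 72.4, 61.5, 46.6 and 58.4 CPM (log2 4.25 ± 0.67, adjusted p = 0.00105). Klk1, a tissue kallikrein, measured 646, 881, 758 and 280 CPM and was at 0.318 to 1.26 CPM in lymph node Treg (log2 9.95 ± 1.77, adjusted p = 0.00323), although uterine Treg 5 held 161 CPM. The predicted gene Gm21762 had 0 counts in the lymph node and a mean of 34.6 CPM in CD4conv, at least 162-fold above a floor of 3 counts over the group.

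Macrophage genes were less even. C1qb, a chain of complement C1q, measured 32.7, 278, 343 and 6.38 CPM in CD4conv and had 2 counts in all lymph node libraries together, which gave a ratio of 1292 (95% counting interval 357 to 10668). Apoe, the lipid carrier of macrophages, measured 418, 3588, 4652 and 22.3 CPM in CD4conv and 11.4, 7.15, 10.5 and 5.56 CPM in lymph node Treg (log2 8.24 ± 1.42, adjusted p = 0.00235). The highest and lowest CD4conv libraries were thus further apart than CD4conv 5 and the lymph node. Uterine Treg 5 held 532 CPM of Apoe and pregnant uterine Treg 3 held 97.4 CPM, so the gene was not restricted to CD4conv. The signalling adaptors Tyrobp (654, 1267, 900 and 274 CPM against 0 to 1.16 CPM) and Fcer1g (91.7, 399, 376 and 36.5 CPM against 0.159 to 0.758 CPM) encode proteins that myeloid and NK cells share. They were higher in all 12 uterine libraries than in the lymph node, at 2.09 to 15.7 and 2.24 to 16.8 CPM in the 8 uterine Treg libraries.

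The classical class II genes, which present peptides to CD4 T cells, were higher as well. H2-Aa, H2-Ab1, H2-Eb1 and Cd74 are themselves members of the macrophage and dendritic cell list above. H2-Aa measured 475, 1692, 1636 and 171 CPM in CD4conv and 12.9, 5.24, 6.98 and 11.9 CPM in lymph node Treg (log2 6.92 ± 0.95, adjusted p = 0.000204). H2-Eb1 measured 374, 1710, 1606 and 106 CPM against 12.2, 10.5, 9.31 and 11.1 CPM (log2 6.75 ± 0.95, adjusted p = 0.000259). Cd74, the invariant chain that escorts class II molecules, measured 3041, 7595, 9214 and 1135 CPM against 78.1, 28.1, 36.7 and 70.8 CPM (log2 6.75 ± 1.01, adjusted p = 0.000544). In each of them CD4conv 2 and 3 were highest and CD4conv 5 lowest, and no CD4conv library overlapped a Treg library. These genes count in the summed level of that list, so the order they share with it is in part their own. Transcription of class II genes is known to depend on short conserved boxes ahead of the start site, among them the Y box, which binds the factor NF-Y. The stretches below show this box in capitals, from the RefSeq start sites on GRCm38.p6, written 5′ to 3′ on the strand of the gene.
H2-Aa, chr17:34287824-34287920, minus strand: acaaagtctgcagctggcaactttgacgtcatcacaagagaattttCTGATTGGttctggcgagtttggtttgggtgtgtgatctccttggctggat
H2-Eb1, chr17:34305759-34305858, plus strand: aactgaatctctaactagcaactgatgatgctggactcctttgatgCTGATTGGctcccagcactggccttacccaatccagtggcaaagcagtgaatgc

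The box was searched as CTGATTGG and, on the other strand, CCAATCAG in the 250 bases before each start. It occurred in 3 of 6 matched class II genes (H2-Aa, H2-Eb1 and H2-Oa) and in 3.829% of 32851 promoters. H2-Ob, the class II gene that was lower in CD4conv, had no match of these letters in this window. A match describes the sequence and not its use in these cells.

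Some genes known from CD8, cytotoxic and resident T cells were also higher in CD4conv. Of the CD8 and gamma delta T cell list, 1 of 8 genes was higher over all genes (Cd8b1), and 6 of 8 had a positive difference. Cd8b1, the beta chain of CD8, measured 286, 295, 300 and 119 CPM in CD4conv and 20.2, 25.7, 19.2 and 15.7 CPM in lymph node Treg (log2 3.85 ± 0.59, adjusted p = 0.00084). Cd8a, the alpha chain, measured 35.2, 55.0, 36.9 and 20.3 CPM against 5.81 to 12.9 CPM and did not pass (log2 2.43 ± 0.77, adjusted p = 0.295). Ccl5, a chemokine of memory and cytotoxic T cells, measured 176, 457, 113 and 135 CPM against 6.19, 14.3, 17.5 and 9.61 CPM (log2 4.71 ± 0.65, adjusted p = 0.000214). Cxcr6, a receptor of resident T cells and NK cells, measured 90.5, 26.9, 52.5 and 128 CPM against 6.51, 5.72, 4.66 and 3.54 CPM. Its highest values were in CD4conv 1 and 5, and the groups did not overlap. The part of NK cells or other cells in this difference was not tested. Cxcr6 passed over all genes (log2 3.77 ± 0.87, adjusted p = 0.0349), but not without any 1 of the 8 libraries, and passed above background (adjusted p = 0.00804) in all 8 such fits.

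Genes of T helper function rarely passed. Most of them ran higher in CD4conv: 13 of 17 had a positive difference over all genes, with a median log2 difference of 1.02. The list's summed level ran the other way, at 511 to 902 CPM in CD4conv and 923 to 1522 CPM in lymph node Treg. Over all genes, 0 of 17 helper cytokines and regulators passed edgeR's test, in a fit in which 1197 genes had an unadjusted p under 0.05, and 2 of 17 were higher with DESeq2. Above background, 1 of 5 was higher (Ifng) and 1 was lower (Ltb). Ifng, the T helper 1 cytokine, measured 86.9, 58.7, 51.3 and 98.4 CPM in CD4conv and 12.5, 13.3, 14.5 and 9.61 CPM in lymph node Treg (log2 2.59 ± 0.68, adjusted p = 0.0244 above background), a call that was lost without CD4conv 1 or 5 or any 1 lymph node library. Tbx21, which encodes the T helper 1 regulator T-bet, measured 43.1, 57.5, 35.1 and 75.1 CPM against 7.62, 6.19, 5.24 and 5.81 CPM (log2 3.14 ± 0.80, adjusted p = 0.0803 over all genes). Cd40lg, the CD40 ligand, measured 143, 108, 63.3 and 116 CPM against 25.6, 31.9, 23.3 and 15.9 CPM (log2 2.19 ± 0.70, adjusted p = 0.065 above background). The 4 CD4conv values of all 3 genes lay above those of lymph node Treg. In this direction, 3.64% of all genes and 7.18% of genes above background showed such a separation. Il2 measured 16.0, 52.2, 8.35 and 19.7 CPM against 1.59, 11.4, 13.4 and 6.07 CPM, and those groups overlapped (log2 2.18 ± 0.90, adjusted p = 0.855).

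Il7r, the interleukin 7 receptor that conventional T cells carry at a higher level than Treg, measured 293, 237, 189 and 242 CPM in CD4conv and 82.9, 79.6, 76.8 and 64.7 CPM in lymph node Treg (log2 1.71 ± 0.27, adjusted p = 0.000515 above background). Uterine Treg were at 54.4 to 199.8 CPM, overlapping both groups, and the difference of CD4conv from uterine Treg did not pass (0.84 ± 0.27, adjusted p = 0.0725). Areg, the growth factor amphiregulin, measured 4.26, 7.15, 7.24 and 6.38 CPM in CD4conv and 21.6, 14.3, 32.6 and 17.9 CPM in lymph node Treg (log2 −1.73 ± 0.55, adjusted p = 0.0637 above background), and CD4conv were below uterine Treg by −2.98 ± 0.57 (adjusted p = 0.00292). Il1rl1, the interleukin 33 receptor, measured 36.6, 20.4, 41.1 and 46.3 CPM in CD4conv and 17.9, 30.5, 36.7 and 45.0 CPM in lymph node Treg and did not pass (0.19 ± 0.32, adjusted p = 0.897). Pregnant uterine Treg exceeded the same lymph node libraries by 2.42 ± 0.34 (adjusted p = 0.000515).

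NF-kB response genes were lower for 5 of 14 above background (Nfkbia, Nfkb2, Rel, Relb and Traf1) and for 0 of 14 over all genes by edgeR and by DESeq2. The count above background was 2 without lymph node Treg 5 and 3 without CD4conv 2. Nfkbia, the inhibitor that NF-kB induces, measured 866, 1344, 834 and 619 CPM in CD4conv and 3009, 2484, 2275 and 2054 CPM in lymph node Treg, without overlap (log2 −1.35 ± 0.25, adjusted p = 0.0021 above background). TNF receptor superfamily genes were lower for 6 of 10 above background and for 1 of 14 over all genes. Of the pan T cell list, 3 of 16 genes were lower above background (Cd2, Lck and Bcl11b; 1 without CD4conv 2 or 3 or lymph node Treg 1, 2 or 5) and 0 over all genes, while that list's sum was lowest in CD4conv 2 and 3. Without those libraries, and likewise without lymph node Treg 1 and 3, 0 of 16 pan T cell genes passed in either fit. Heat shock, glycolysis and checkpoint genes passed in 0 of 13, 0 of 16 and 0 of 13 cases over all genes, with DESeq2 in 0, 0 and 1, and above background only the checkpoint receptors Ctla4 and Tigit passed.

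Interferon response genes were higher for 3 of 20 over all genes (Bst2, Ifi44 and Ifitm3) and for 4 of 15 above background, where Irf7 joined them. Over all genes the count was 1 without CD4conv 2 or 3 or lymph node Treg 1, 2 or 3 and 0 without lymph node Treg 5, and above background it was 2 without CD4conv 2 or 3 or any 1 lymph node library. Irf7, the regulator of type I interferon genes, measured 372, 411, 844 and 265 CPM in CD4conv and 72.4, 85.8, 58.2 and 135 CPM in lymph node Treg (log2 2.52 ± 0.33, adjusted p = 0.000107 above background). Bst2, the antiviral tetherin and also a plasmacytoid dendritic cell marker, measured 454, 639, 430 and 158 CPM against 60.8, 32.4, 36.7 and 37.9 CPM. Its log2 difference was 3.48 ± 0.70 (adjusted p = 0.0105 over all genes, lost without CD4conv 2 or lymph node Treg 2, 3 or 5, and kept above background in all 8 such fits). Interferon genes often carry an interferon-stimulated response element, searched as GAAA followed, after any 2 bases, by GAAA, and on the other strand as TTTC, any 2 bases, TTTC. The Bst2 stretch shows 2 overlapping matches as 1 run of capitals.
Bst2, chr8:71537547-71537648, minus strand: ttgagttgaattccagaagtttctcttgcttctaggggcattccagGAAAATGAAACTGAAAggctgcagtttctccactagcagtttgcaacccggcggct
The element occurred in 7 of 14 matched interferon genes and in 2.977% of the 32851 promoters. Irf7, Ifi44 and Ifitm3 had no match of these letters in this window.

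Few called genes ran with the batch. Over all genes 2 did, and above background 2 did, against 0.0166% of all genes with batch 1 above batch 2 and 0.0423% above background (0.0166% and 0.0212% the other way). Ms4a4c, a membrane protein of the MS4A family, measured 25.9, 100.1, 186 and 21.4 CPM in CD4conv, 6.57 to 12.2 CPM in lymph node Treg, 1.48 to 6.79 CPM in uterine Treg and 15.1 to 24.0 CPM in pregnant uterine Treg. Its call over all genes (log2 3.48 ± 0.70, adjusted p = 0.00996) was lost without CD4conv 2 or 3 or lymph node Treg 2, 3 or 5. Runx2, a transcription factor of bone and of plasmacytoid dendritic cells, measured 217, 278, 201 and 115 CPM in CD4conv against 15.4 to 31.4 CPM in lymph node Treg, 22.7 to 36.9 CPM in uterine Treg and 38.3 to 55.6 CPM in pregnant uterine Treg (log2 3.47 ± 0.57, adjusted p = 0.00142). Every CD4conv value of Runx2 also lay above every Treg value, so it was placed with both batch and lineage. The third gene was Ssr1, called above background only. Pregnancy runs with the batch among the uterine Treg, so those causes cannot be told apart for these genes.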

How the data were processed

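The authors deposited counts of reads per gene, not normalized, for 49585 genes. RNA of sorted cells was made into libraries with kits that do not mark strand (SMART-Seq v4, Nextera XT), per the labels' protocols, so overlapping and antisense genes cannot be separated. The submitters' processing notes name GRCm38 as the build and HISAT2, featureCounts, Trimmomatic, SAMtools and DESeq2 as tools. Their versions and settings were not found in the labels or headers. GENCODE M21 named 49326 genes. Counts were tested with edgeR 4.0.16 in R 4.3.3 (quasi-likelihood, TMM, filterByExpr, robust, all 16 libraries, 12 residual degrees of freedom, Benjamini-Hochberg threshold 0.05). SE is the absolute log2 fold change over the square root of F. The square root of the common dispersion was 0.812 over all genes and 0.433 above background. Background came from 1429 receptor genes, as reads per exonic base.

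In simulated data for this comparison the fit over 30096 genes recovered 0%, 1.45% and 21.9% of genes changed 2, 4 and 8-fold, and the fit over 4723 genes 19.2%, 82.7% and 93.2%. Alternatives were DESeq2 1.42.0, other size factors, no filter, the 8 libraries alone, a replicate block, libraries left out and 10 times the background. Intervals cover counting error only, and p-values measure the spread between pools.

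Named genes were Foxp3, Il2ra and further fixed genes; the 10 highest and 10 lowest non-overlapping changes with at least 20 CPM in each fit; up to 4 members of a list at 5 CPM or more; and the 6 highest and lowest of each placement. Cxcr3, Ccr2, Ccr6, Gpr183, S100a11, Anxa2, Emp1, Ahnak, Myo1f, H2-Ob, Ecm1, Irf8, Dusp4, Ikzf4, Ltb, Rel, Foxo1 and Runx3 were named outside this rule, after their values were seen. The members, the 31 gene lists and the motifs were chosen with earlier results of these data known. Promoter sequences are from RefSeq.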

Additional observations from a re-analysis of the deposited data

Results flagged for a closer look

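Within groups of 4 libraries, 16 of 180 examined values held a library whose gap to the nearest other exceeded Dixon's 95% critical value as a share of the group's range; chance flags about 1 in 20 such groups, and several of the values share genes. In CD4conv, library 2 had the fewest genes detected, 33707 against 41490 to 42294 in the others. CD4conv 5 had the lowest summed CD8 and gamma delta T cell level, 187 CPM against 359 to 368, and the lowest Cd8b1, 119 CPM against 286 to 300. CD4conv 3 had the highest neutrophil sum, 373 CPM against 45.3 to 85.8, the highest epithelial sum, 521 CPM against 61.5 to 136, and the highest Ccr2, 772 CPM against 259 to 300. CD4conv 1 had the highest S100a11, 155 CPM against 113 to 119.

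In lymph node Treg, library 1 stood apart most often. It had the highest S100, galectin and annexin sum, 2427 CPM against 1445 to 1608, the highest S100a11, 86.7 CPM against 47.6 to 49.0, the highest Izumo1r, 842 CPM against 424 to 474, and the highest Cox6a2, 0.318 CPM against 0 in the others. It had the lowest endothelial sum, 117 CPM against 299 to 333, the lowest Emp1, 19.7 CPM against 38.99 to 40.5, and the lowest Atf3, 20.3 CPM against 46.8 to 51.9. Lymph node Treg 3 had the lowest immediate early sum, 8898 CPM against 11591 to 11973, and lymph node Treg 5 the lowest B and plasma cell sum, 359 CPM against 445 to 460.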

How the results depend on the processing

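Of 200 genes followed, 12 changed direction under an alternative; 0 of the 12 had passed in the fit over all 16 libraries and 0 passed after the change. Without CD4conv 2 and 3 the log2 difference became −0.447 for Rgs1, −0.473 for Hspe1, −0.272 for mt-Nd6, −0.605 for Tpi1, 0.157 for Myh11, −0.505 for Hba-a1, −1.08 for Hbb-bs and −0.656 for Hbb-bt; without lymph node Treg 1 and 3 it became −0.029 for S1pr1 and −0.127 for Prox1. With 1 library left out it ranged over 0 for Rgs1 (−0.111 to 0.442), Hspe1 (−0.51 to 0.761), mt-Nd6 (−0.18 to 1.36), Pdpn (−0.626 to 0.0534), Klf2 (−0.284 to 0.0852), Prox1 (−0.21 to 0.682) and S1pr1 (−0.0182 to 0.655). The cause was not tested. Single genes were not followed at 10 times the background. Over all genes, 178 higher and 22 lower genes became 367 and 68 with DESeq2, 383 and 59 with the 8 libraries alone, 37 and 2 without CD4conv 2 and 3, and 11 and 4 without lymph node Treg 1 and 3, a pair chosen after seeing the data. Above background, 225 and 136 became 87 and 50 and 74 and 64 in those last 2 settings. The 23 called genes placed with the tissue over all genes became 44, 39, 5 and 6 in the same 4 settings. The 129 placed with the lineage became 202 with the 8 libraries alone, 37 and 14 without each pair of libraries. The 2 placed with the batch became 4 with DESeq2 and with the 8 libraries alone, and 0 without either pair.

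Leaving out 1 library at a time gave 88 to 219 higher and 10 to 20 lower genes over all genes, 142 to 250 and 80 to 129 above background, and 10 to 21, 80 to 164 and 1 to 2 placed with tissue, lineage and batch. The higher count fell by more than 1.5 times without CD4conv 3 (114) and without lymph node Treg 1 (107), 2 (107), 3 (111) or 5 (88), and the lower one without CD4conv 1 (11), 2 (10), 3 (12) or 5 (14) or lymph node Treg 1 (10) or 5 (10). Above background both counts fell as far without CD4conv 3 (148 and 83) or lymph node Treg 2 (142 and 80), 3 (145 and 86) or 5 (149 and 85).

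With the replicate number as a block in the 8 libraries, 301 genes were higher and 48 lower, and 36 were placed with the tissue. Same-numbered libraries correlated at 0.026, −0.40, 0.29 and 0.36 in their deviations from the group means, and only number 5 correlated best with its own. Weak correlations over 4 libraries in a group cannot exclude a pairing, so whether the numbers pair the samples is not known. The helper cytokine list, at 0 of 17 over all genes, had 2 higher genes with DESeq2 and 4 with the 8 libraries alone. Depth limits the lymph node most, where totals were 1718558 to 6298500 counts, and a change of 4-fold was rarely recovered over all genes.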

Other observations

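Epithelial, fibroblast, smooth muscle, endothelial, neutrophil, mast cell, erythroid and lymph node stroma markers passed in 0 genes over all genes or above background in edgeR's test on all 16 libraries. With DESeq2, 1 neutrophil gene was higher over all genes and 1 smooth muscle gene was lower above background. In edgeR's test on the 8 libraries alone, 1 epithelial gene was higher over all genes, with or without the replicate block. There, 1 smooth muscle gene was lower above background without the block, and 1 neutrophil gene was higher over all genes with it. Of these marker lists, 10 of 10 epithelial genes (median log2 2.55) and 5 of 7 erythroid genes (median 3.29) had a positive difference in the fit on all 16 libraries. Epithelial sums were 136, 61.5, 521 and 114 CPM in CD4conv and 25.1 to 68.7 CPM in lymph node Treg, and erythroid sums 16.7, 60.8, 197 and 28.7 CPM against 4.45 to 36.1 CPM, both highest in CD4conv 3. Without CD4conv 2 and 3 those medians were 0.92 and −0.50. Sums overlapped between the groups for fibroblast (162 to 430 CPM against 138 to 322), endothelial (238 to 333 against 117 to 333) and smooth muscle markers (42.7 to 117 against 30.3 to 182). Igkc, the kappa light chain of antibodies, measured 742, 90.0, 1348 and 38.7 CPM in CD4conv and 8.15 to 22.0 CPM in lymph node Treg (log2 4.99 ± 0.94, adjusted p = 0.00567 over all genes), highest in CD4conv 1 and 3 rather than in 2 and 3. Blnk, an adaptor of B cells and plasmacytoid dendritic cells, measured 188, 214, 321 and 125 CPM against 1.91, 28.6, 30.3 and 11.1 CPM (log2 4.05 ± 0.72, adjusted p = 0.00323).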
